A study of Mus musculus with 9 samples.

Results

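The respiratory chain of the inner mitochondrial membrane is built from proteins of 2 genomes. It was followed here in mouse dorsal lateral geniculate nucleus, or dLGN, which passes retinal input to the visual cortex. Members were taken by gene name for the nuclear subunits of complexes I to V (Nduf, Sdh, Uqcr, Cox and Atp5 names) and by chromosome for the mitochondrial genome. The names matched 83 nuclear genes, of which 36 were assigned to complex I, 4 to complex II, 8 to complex III, 18 to complex IV and 17 to complex V (ATP synthase). The mitochondrial chromosome gave 25 rows, with 7 mRNAs, 2 rRNAs and 16 tRNAs. Together these were 108 of 20707 genes. The other 6 mitochondrial mRNAs of the annotation, mt-Co2, mt-Co3, mt-Atp6, mt-Atp8, mt-Nd3 and mt-Nd4l, were not analysed here, so every summary of mitochondrial mRNAs rests on the 7.

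All animals were wild-type C57BL/6J mice of both sexes, kept in the dark from postnatal day 20 to postnatal day 27. The groups received 0, 1 or 8 h of light before dissection, with 3 libraries from 3 mice in each group. The dLGN was cut by hand from 300 µm coronal slices, and total RNA depleted of ribosomal RNA was sequenced. The 0 h group is therefore also dark-reared, and no normally reared group was analysed here.

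In the chain, complex I (NADH dehydrogenase) and complex II (succinate dehydrogenase) pass electrons through ubiquinone to complex III, and cytochrome c carries them on to complex IV (cytochrome c oxidase). Complexes I, III and IV pump protons, and ATP synthase uses the gradient to make ATP, on which neurons depend for ion pumping and synaptic transmission. Complex II is encoded wholly by nuclear genes, whereas the other complexes also need mitochondrial mRNAs. The mitochondrial genome is copied into long transcripts from both strands, and tRNAs are cut out from between the mRNAs and rRNAs.

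Total counts ran from 5.73 M reads in 0 h replicate 1 to 22.6 M in 8 h replicate 1. The relay-neuron transcript Slc17a6 was present in every library at 413 to 536 CPM (counts scaled to library size with TMM factors), and Prkcd at 1144 to 1646 CPM. The dissections were not alike. Neurod6, a transcript of cortical and hippocampal neurons, stood at 18.3 CPM in the second 0 h library (replicate 2) and at 13.9 CPM in replicate 1 of the 1 h group, against 0.227 to 3.61 CPM in the other libraries. The GABA-neuron transcript Gad2 was lowest in 0 h replicate 2, at 55.1 CPM, against 89.9 to 173 CPM elsewhere. The summed level of 9 cortical and hippocampal neuron markers was 624 to 899 CPM at 0 h, 567 to 825 CPM at 1 h and 643 to 736 CPM at 8 h, and 2 of them were at 0 reads in at least 1 library. The part of these differences in the results below was not tested.

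The mitochondrial rows came mostly from rRNA and mRNA, and the tRNA rows were nearly empty. All 16 tRNA rows together held 2130 reads over the 9 libraries, and 77.7% of them fell on mt-Tl1, mt-Ti and mt-Tm, the tRNAs for leucine, isoleucine and methionine. These tRNAs border longer transcripts. mt-Tl1 lies at MT:2676-2750 (GRCm38, plus strand) between mt-Rnr2 and mt-Nd1, mt-Ti at MT:3706-3774 overlaps the last bases of mt-Nd1, and mt-Tm at MT:3845-3913 directly precedes mt-Nd2. Their annotated sequences (GENCODE M21, GRCm38) are shown because they carried most of the tRNA counts, with the anticodon in capitals.
mt-Tl1: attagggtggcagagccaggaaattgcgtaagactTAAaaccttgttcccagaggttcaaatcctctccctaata
mt-Ti: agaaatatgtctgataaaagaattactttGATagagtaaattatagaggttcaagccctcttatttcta
mt-Tm: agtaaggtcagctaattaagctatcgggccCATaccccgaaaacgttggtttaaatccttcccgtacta
Each sequence is 69 to 75 bases long, shorter than the fragments of about 350 bases that the protocol aimed for. Whether the reads came from mature tRNAs or from longer transcripts was not tested.

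Several members share long stretches of sequence with other genes, which limits what their counts mean. The share of 50-base stretches of each member's annotated transcripts that also occur in another gene's transcripts was counted. It was 87.4% for Atp5g2 and 68.5% for Atp5l, which encode a membrane-ring subunit and a small membrane subunit of ATP synthase. It was 53.0% for Cox7c, a small subunit of complex IV. The first 90 coding bases of these 3 genes are shown beside an intronless copy annotated elsewhere in GRCm38, with differing bases in capitals. The Atp5g2 gene lies at chr15:102662864-102672352 and its copy Gm10175 at chr7:23946646-23947290. Atp5l lies at chr9:44912557-44920742 and Gm10221 at chr5:24581554-24581862, and Cox7c lies at chr13:86044816-86046904 and Gm10012 at chr17:25901856-25902227.
Atp5g2: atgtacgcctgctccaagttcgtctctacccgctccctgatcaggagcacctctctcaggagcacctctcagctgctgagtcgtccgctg
Gm10175: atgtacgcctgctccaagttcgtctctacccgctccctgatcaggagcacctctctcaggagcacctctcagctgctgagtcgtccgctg
Atp5l: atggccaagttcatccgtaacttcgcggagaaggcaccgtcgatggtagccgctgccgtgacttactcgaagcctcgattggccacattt
Gm10221: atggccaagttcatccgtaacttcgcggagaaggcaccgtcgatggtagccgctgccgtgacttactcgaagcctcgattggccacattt
Cox7c: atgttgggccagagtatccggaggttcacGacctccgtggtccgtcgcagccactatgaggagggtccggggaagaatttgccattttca
Gm10012: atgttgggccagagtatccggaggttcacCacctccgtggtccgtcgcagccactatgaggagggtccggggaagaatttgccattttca
The Atp5g2 and Atp5l stretches had 0 differences from their copies and Cox7c had 1. The mean level over the 9 libraries was 0.468 CPM per kb for Atp5g2, 1.01 for Atp5l and 1.60 for Cox7c, against a median of 47.2 CPM per kb over the nuclear members. How the authors' counting treated reads that match several places was not given in the sources used here, so these 3 levels are uncertain. Atp5h, which shared 50.5% of its stretches, stood higher, at 25.6 CPM per kb. Among the mitochondrial mRNAs, mt-Nd4 shared 62.2% and mt-Co1 51.1% of its stretches with other genes, and the remaining 5 shared 8.2% or less. Of the 6 mRNAs not analysed here, mt-Atp8 shared 0% and the other 5 shared 98.0% to 100%.

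**Figure D1:**
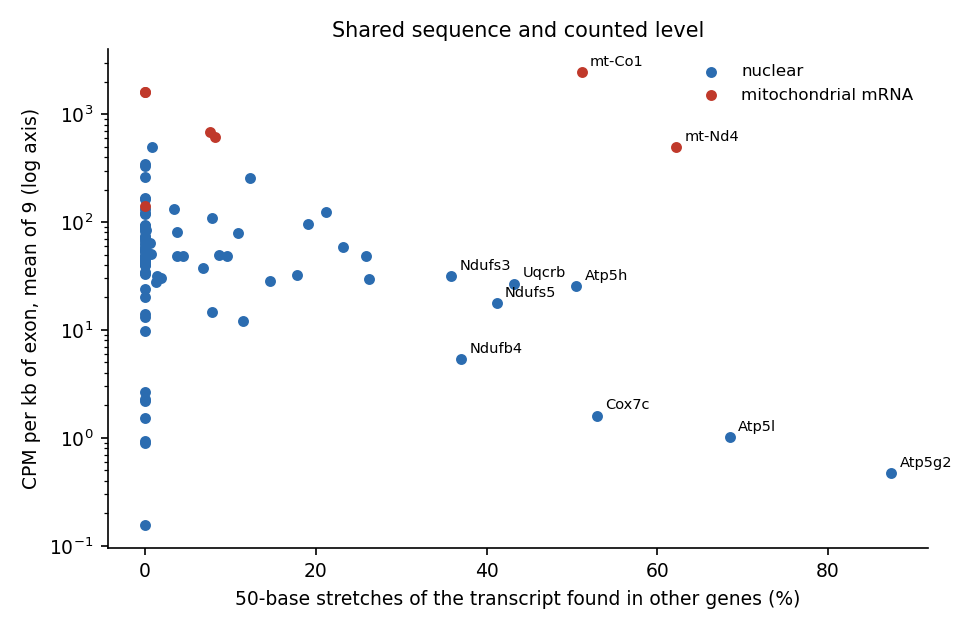
Share of 50-base stretches of each member's transcripts found in other genes (x axis, percent) against its mean level over 9 libraries (y axis, CPM per kb of exon, log axis), for nuclear genes in blue and mitochondrial mRNAs in red. Atp5g2, Atp5l and Cox7c sit at the lower right, at 0.468 to 1.60 CPM per kb. The nuclear gene Atp5h, which shares 50.5% of its stretches, stands at 25.6 CPM per kb. mt-Co1 and mt-Nd4 stay high despite sharing over 50%.

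Levels within the chain were compared per kb of exon, with the deposited exonic length. For some genes that length differs from the annotated transcripts. Ndufa4 has 1454 bases but 561 different 50-base stretches and Atp5h 1274 and 576, whereas Uqcrq has 542 and 1472. How far this shifts the levels per kb was not tested. The median of the 7 mitochondrial mRNAs was 678 ± 135 CPM per kb (SD over the 9 libraries, all light times pooled). It was 14.3 ± 2.25 times the median of the nuclear members, with a range of 9.07 to 16.7 between libraries. mt-Co1, the catalytic subunit of complex IV, had the highest level at 2460 ± 262 CPM per kb (SD, n = 9). mt-Nd1, a membrane subunit of complex I, stood at 1616 ± 340 and mt-Cytb, the cytochrome b of complex III, at 1591 ± 264 CPM per kb. These 2 levels differed by less than their spread. mt-Nd5, mt-Nd2 and mt-Nd4, further membrane subunits of complex I, followed at 678 ± 135, 608 ± 153 and 495 ± 109 CPM per kb. These ranges of neighbours overlapped, but the SD measures the spread between libraries. Within each library they kept this order. The levels were 391, 268 and 241 CPM per kb in 0 h replicate 2 and 882, 807 and 622 in 0 h replicate 3. mt-Nd6, the mRNA read from the opposite strand, was lowest at 141 ± 40.2 CPM per kb. It overlaps the end of mt-Nd5, and the strand setting of the counting was not given in the sources used here, so reads of the pair may be mixed at MT:13552-13565.

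Among nuclear members, the levels per kb spanned more than the gap between the genomes. Atp5b, the catalytic beta subunit of ATP synthase, was the highest at 492 ± 19.7 CPM per kb (SD, n = 9; chr10:128083307-128090388). Cox8a followed at 345 ± 17.1 and Cox4i1 at 329 ± 27.2 CPM per kb in complex IV. The top members of the remaining complexes were Uqcrc1 in complex III (122 ± 5.68 CPM per kb), Ndufb9 in complex I (118 ± 13.9) and Sdha, the flavoprotein of complex II (92.0 ± 4.79). By complex, the median level was 40.1 CPM per kb in complex I, 58.2 in complex II, 74.4 in complex III, 48.6 in complex IV and 48.9 in complex V. The 4 subunits of complex II covered the narrowest range, from Sdhd at 44.3 to Sdha at 92.0 CPM per kb, with the iron-sulfur subunit Sdhb at 62.8 and the membrane subunit Sdhc at 53.6.

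**Figure D2:**
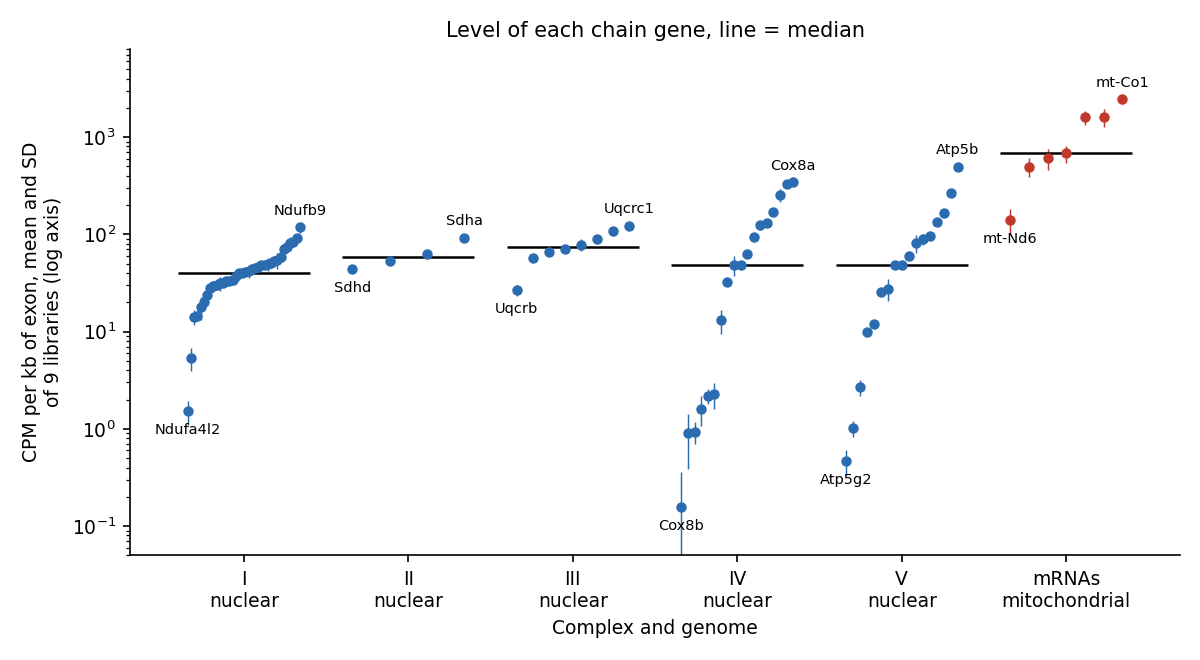
Level of each nuclear member by complex and of each mitochondrial mRNA (y axis, CPM per kb of exon, log axis). Points are means and bars SD over 9 libraries, black lines are medians. The 7 mitochondrial mRNAs run from 141 to 2460 CPM per kb, and the nuclear members from 0.155 (Cox8b) to 492 (Atp5b).

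Paired isoforms were expressed very unequally. Cox4i1 stood 150-fold above Cox4i2, the isoform known from lung and from low oxygen, with a range of 118-fold to 215-fold between libraries. Cox6a1 exceeded the heart and muscle isoform Cox6a2 by 19.4-fold, and Cox7a2 exceeded the muscle isoform Cox7a1 by 41.1-fold. Cox6b1 exceeded the testis isoform Cox6b2 by 187-fold, where Cox6b2 rested on 87 reads in all. Cox8b, another muscle isoform, had 9 reads over the 9 libraries and was at 0 reads in 5 of them. Of the ATP synthase ring genes, which encode the same mature protein, Atp5g3 exceeded Atp5g1 by 13.6-fold. Ndufa4, a complex IV subunit despite its name, exceeded its low-oxygen relative Ndufa4l2 by 32.3-fold.

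The name rule also caught genes that are not subunits. Cox7a2l, which helps assemble respiratory supercomplexes, stood at 32.1 CPM per kb. Atp5s and Atp5sl, which are named after ATP synthase but assigned elsewhere, stood at 2.67 and 9.86 CPM per kb. By name alone, Cox7a2l is counted in complex IV and the other two in complex V throughout. Ndufa4 is counted in complex IV, but its relative Ndufa4l2 is counted by name in complex I.

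The genomes also differed in the spread among dark animals. In the 0 h group, mitochondrial mRNAs took 0.918%, 0.696% and 1.22% of the library counts in replicates 1 to 3. At 1 h they took 0.968%, 0.940% and 0.961%, and at 8 h 1.08%, 1.02% and 0.985%. The 0 h values reached below and above all 6 libraries of the light-exposed groups, so no shift with light can be read from them. Nuclear members took 0.615%, 0.565% and 0.632% at 0 h, 0.555%, 0.600% and 0.591% at 1 h and 0.628%, 0.596% and 0.627% at 8 h, with all groups overlapping. The rRNAs ranged widest, with 1.52%, 2.25% and 4.46% at 0 h, 2.72%, 2.83% and 3.36% at 1 h and 3.11%, 3.26% and 3.15% at 8 h. Ribosomal RNA had been depleted before sequencing, so these shares are what was left, and differences in depletion and in rRNA content cannot be told apart.

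**Figure D3:**
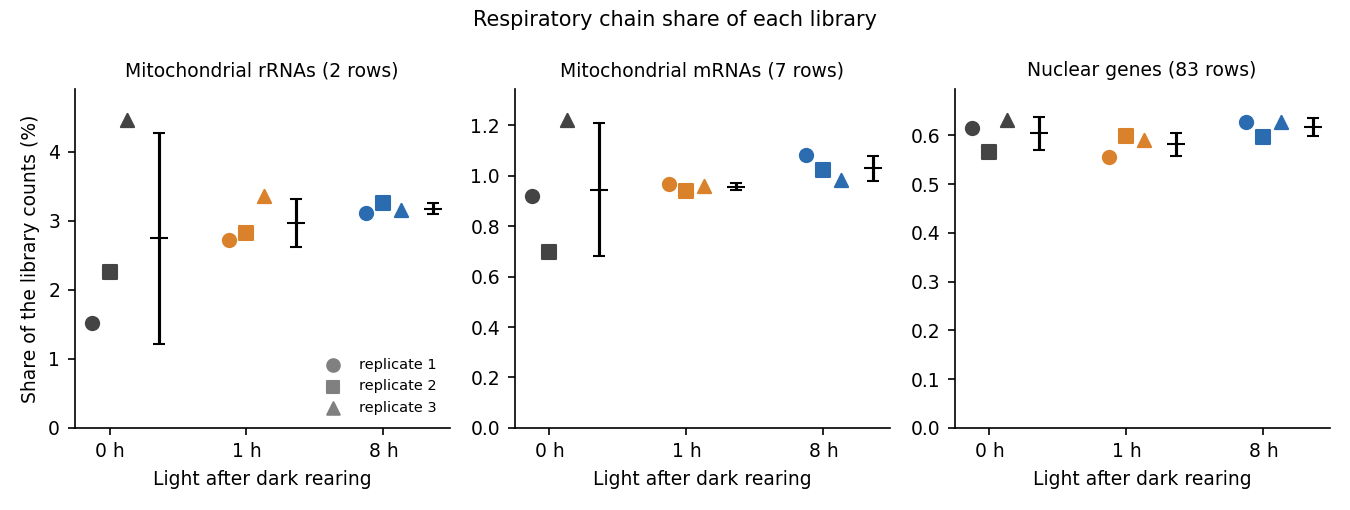
Share of library counts (y axis, percent, from 0) taken by mitochondrial rRNAs, mitochondrial mRNAs and nuclear members at 0, 1 and 8 h of light (x axis). Points are libraries with the shape giving the replicate number, and bars beside them are mean ± SD (n = 3). The 3 libraries at 0 h spread from 1.52% to 4.46% for rRNA and from 0.696% to 1.22% for mRNA, wider than at 1 h or 8 h.

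The log2 ratio of mitochondrial mRNA counts to nuclear member counts was 0.58, 0.30 and 0.95 at 0 h, 0.80, 0.65 and 0.70 at 1 h and 0.78, 0.78 and 0.65 at 8 h. The 0 h libraries held both the lowest and the highest ratio. The mean ratio was 0.11 higher at 1 h than at 0 h and 0.13 higher at 8 h than at 0 h (log2 scale), less than the pooled SD within groups of 0.20. Without 0 h replicate 2 the differences became -0.05 at 1 h and -0.03 at 8 h, and without 0 h replicate 3 they became 0.28 and 0.30. The direction thus rested on which dark library was kept.

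Every one of the 7 mitochondrial mRNAs was lowest in 0 h replicate 2 and highest in 0 h replicate 3 among the 9 libraries. mt-Nd2 had 573, 279 and 837 CPM at 0 h, 660, 620 and 574 CPM at 1 h and 763, 735 and 636 CPM at 8 h. mt-Co1 had 3401, 3323 and 4606 CPM at 0 h, 3826, 3482 and 4082 CPM at 1 h and 4067, 3665 and 3756 CPM at 8 h. The shortfall of 0 h replicate 2 was therefore uneven, and its ratio of mt-Co1 to mt-Nd2 counts was 11.9 against 4.99 to 7.11 in the other 8 libraries. The ratio of mt-Rnr2 to mt-Rnr1, the large and small rRNA, was 8.95 in the same library and 4.88 to 6.62 elsewhere. This library also held the highest Neurod6 and the lowest Gad2 given above, whose part in the result was not tested.

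**Figure D4:**
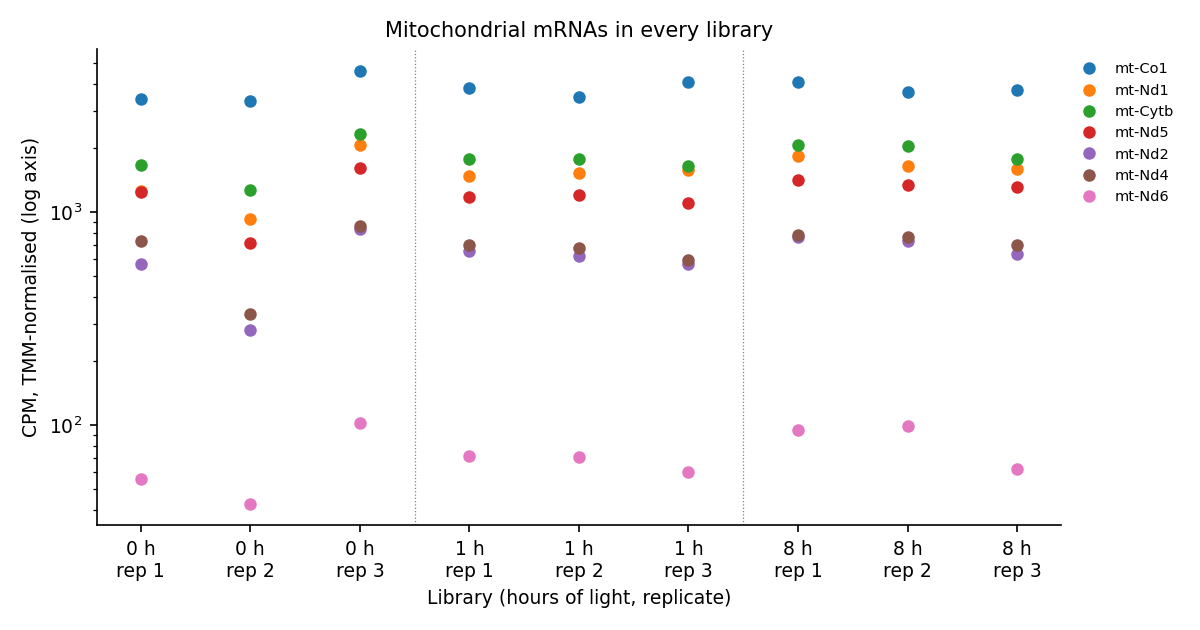
Level of each mitochondrial mRNA (y axis, TMM-normalised CPM, log axis) in each of the 9 libraries (x axis), coloured by gene. All 7 mRNAs are lowest in 0 h replicate 2 and highest in 0 h replicate 3, with mt-Nd2 at 279 and 837 CPM there.

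Nuclear members differed in the same direction between the dark libraries, by less. Of 80 tested nuclear members, 25 (31.2%) were lowest in 0 h replicate 2 and 38 (47.5%) were highest in 0 h replicate 3. Of all 15586 genes tested, 10.3% were lowest and 11.8% highest in those libraries. 1 h replicate 1, the library with the next highest Neurod6, was the lowest for 23 nuclear members (28.75%) and for 11.7% of all genes. The median SD of log2 CPM within the 0 h group was 0.60 for the 7 mitochondrial mRNAs, 0.16 for the nuclear members and 0.14 for all genes. Within the 8 h group these medians were 0.11, 0.06 and 0.10. Atp5k and Atp5j2, small membrane subunits of ATP synthase, showed the unevenness most plainly. Atp5k had 7.82, 3.49 and 10.02 CPM at 0 h, and Atp5j2 had 36.4, 21.0 and 47.7 CPM.

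No respiratory chain gene passed the test after 1 h of light. In edgeR's quasi-likelihood test 0 of 90 tested members passed an adjusted p of 0.05, and only 0.0132% of all genes did, 2 of 15164, both higher. At an unadjusted p under 0.05 there was 1 member higher (1.9% of all genes) and 1 lower (1.31%), and DESeq2 called 0 members (0.104% of all genes). The median log2 fold change of the 78 tested nuclear members was -0.03, with 23 above 0 and 55 below, against a median of 0.00 over all genes. This lean turned without 0 h replicate 3 (46 of 80 above 0, median 0.02) and without 1 h replicate 1 (41 of 80, median 0.00), while without 0 h replicate 2 only 11 of 78 lay above 0 (median -0.11). The 7 mitochondrial mRNAs had a median of 0.01. All 4 complex II genes and all 8 complex III genes lay at or below 0, between -0.10 and -0.00. The 1 h and 0 h libraries did not overlap for 1 nuclear member that was higher at 1 h (background 4.23% of all genes) and for 2 that were lower (background 4.39%). These were Cox7c, which rests on 4 to 22 reads in each of these libraries, and Ndufa4l2 and Ndufv1. Ndufv1, the NADH-binding flavoprotein of complex I, had 125, 114 and 116 CPM at 0 h and 105, 110 and 102 CPM at 1 h, a log2 fold change of -0.15 ± 0.07 (SE) with an adjusted p of 1.0 in edgeR.

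At 8 h against 0 h no member passed edgeR's test either, with 0 of 92 tested, while 0.587% of all genes did (90 of 15330, 81 higher and 9 lower). At an unadjusted p under 0.05 there were 5 members higher and 1 lower, where 5.9% of all genes were higher and 4.32% lower. DESeq2 called 1 member, Ndufb10, and 2.07% of all genes. The authors' deposited table also had 0 members with an FDR under 0.05 (1.17% of all genes in it). Among members the authors' deposited table gave the smallest FDR to Ndufb10, 0.0590, with a fold change of 1.39. The median log2 fold change was 0.07 over 79 tested nuclear members, of which 60 lay above 0, against -0.01 over all genes. Without 0 h replicate 2 the nuclear median was -0.01 with 35 of 80 above 0. For the mitochondrial mRNAs the median was 0.23 with all 7 above 0. It was -0.03 without 0 h replicate 2 and 0.50 without 0 h replicate 3.

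In complex I, Ndufb10, an accessory subunit of the membrane arm, came closest (chr17:24722067-24724388). It had 28.0, 24.0 and 37.0 CPM at 0 h, 31.7, 37.4 and 30.6 CPM at 1 h and 43.6, 39.6 and 40.03 CPM at 8 h. All 8 h libraries lay above all 0 h libraries. Its log2 fold change at 8 h was 0.47 ± 0.13 (SE; adjusted p = 0.209 in edgeR and 0.0393 in DESeq2). Without 0 h replicate 3 the edgeR estimate was 0.68 with an adjusted p of 0.0251, and without 0 h replicate 2 it was 0.31 with an adjusted p of 0.361. Ndufs5, another accessory subunit, had the largest complex I change at 0.48 ± 0.17, with an adjusted p of 0.352 in edgeR. It had 6.97, 6.56 and 10.6 CPM at 0 h and 11.8, 11.1 and 11.1 CPM at 8 h, without overlap. The Ndufs5 estimate was 0.30 without 0 h replicate 2 and 0.76 without 0 h replicate 3. Ndufs5 shares 41.2% of its stretches with other genes. Ndufa11 and Ndufa13 also did not overlap between the groups, with log2 fold changes of 0.24 and 0.29 (adjusted p = 0.431 and 0.534 in edgeR). For Ndufa11 it was 0.14 without 0 h replicate 2 and 0.36 without 0 h replicate 3.

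Complex II lay closest to 0. Its 4 log2 fold changes at 8 h were 0.04 for Sdha, 0.01 for Sdhb, -0.11 for Sdhc and -0.05 for Sdhd, each with an SE of 0.07 to 0.09 and an adjusted p of at least 0.721 in edgeR. In complex III the largest difference was that of Uqcr11, a small accessory subunit, at 0.26 ± 0.10 (adjusted p = 0.418 in edgeR), with 34.2, 26.9 and 35.7 CPM at 0 h and 38.3, 37.9 and 38.7 CPM at 8 h. The groups did not overlap for Uqcr11, and its estimate was 0.13 without 0 h replicate 2.

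In complex IV, Cox6a1 had 120, 109 and 149 CPM at 0 h, 109, 154 and 122 CPM at 1 h and 161, 147 and 155 CPM at 8 h. The groups overlapped through 0 h replicate 3, and the log2 fold change at 8 h was 0.29 ± 0.10 (adjusted p = 0.318 in edgeR). Without that library the edgeR estimate was 0.44 with an adjusted p of 0.0472, and without 0 h replicate 2 it was 0.19 with an adjusted p of 0.501. Cox7a2l, here by name only, ran the other way, with 41.0, 39.1 and 39.3 CPM at 0 h and 33.4, 32.7 and 34.3 CPM at 8 h, without overlap. Its log2 fold change was -0.24 ± 0.07 (adjusted p = 0.206 in edgeR), the smallest adjusted p of any member. The largest complex IV estimate, 0.74 for Cox6b2, rests on 1 to 21 reads in each of these libraries and ran from 0.41 to 1.44 with 1 library left out. In complex V the largest estimate was that of Atp5k, at 0.48 ± 0.29 with overlapping groups. It was 0.08 without 0 h replicate 2 and 0.95 without 0 h replicate 3. Atp5d, the delta subunit of the rotor, had 129, 118 and 127 CPM at 0 h and 138, 136 and 134 CPM at 8 h, a log2 fold change of 0.13 ± 0.06 (adjusted p = 0.505 in edgeR).

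In all, 6 of 79 nuclear members were higher at 8 h without overlap, 7.59%, where 8.4% of all genes were. Only Cox7a2l was lower without overlap, where 7.89% of all genes were. Of the mitochondrial mRNAs and rRNAs none was free of overlap. mt-Rnr1 had 1992, 2240 and 7564 CPM at 0 h and 4923, 5589 and 4480 CPM at 8 h, a log2 fold change of 0.35. Without 0 h replicate 3 this became 1.24 with an adjusted p of 0.00286 in edgeR, whereas it was 0.04 without 0 h replicate 1 and 0.07 without 0 h replicate 2. For mt-Rnr2 the log2 fold change was 0.20, and it turned to -0.09 without 0 h replicate 1. Log2 fold changes of the mitochondrial mRNAs ran from 0.02 (mt-Co1) to 0.35, with SE of 0.11 to 0.29 and adjusted p of at least 0.727 in edgeR.

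**Figure D5:**
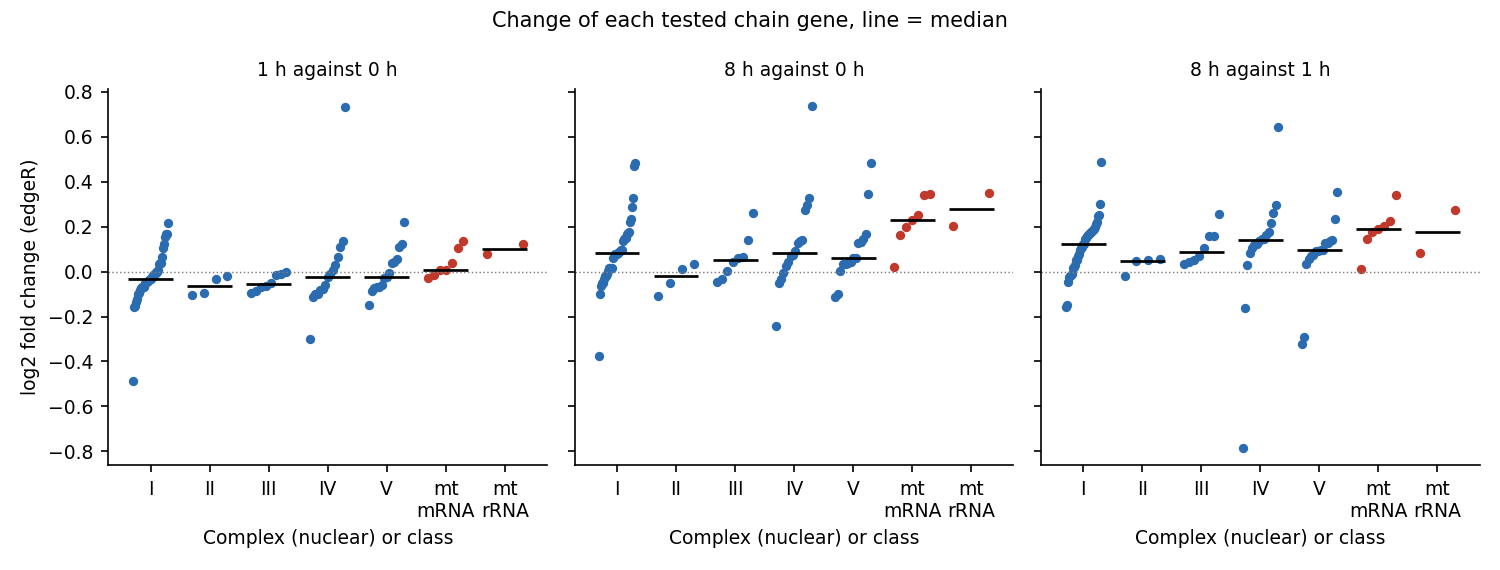
Log2 fold change (y axis) of every tested member in 3 comparisons, for nuclear members by complex (blue) and for mitochondrial mRNAs and rRNAs (red). Each point is a gene and each black line a median. The nuclear median was -0.03 at 1 h against 0 h, 0.07 at 8 h against 0 h and 0.11 at 8 h against 1 h, and no point passed the adjusted threshold in edgeR.

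The comparison of 8 h with 1 h does not compare against the dark group, although its fit used the 0 h libraries to estimate the spread. Again 0 of 93 tested members passed edgeR's test, and DESeq2 called 0 members (1.63% of all genes). At an unadjusted p under 0.05, 11 members were higher (4.81% of all genes) and 1 was lower (4.09%). Over all genes 0.603% passed (94 of 15586). Of 80 nuclear members, 68 had a log2 fold change above 0, with a median of 0.11 against -0.01 over all genes. With all 8 h libraries above all 1 h libraries there were 21 nuclear members, 26.2%, where the background was 8.34%. 1 was lower without overlap, the sparsely counted Cox7c, where the background was 6.97%. Leaving out 1 h replicate 1 gave 22 of 80 higher without overlap (27.5%), beside 12.3% of all genes. Leaving out 1 h replicate 2 or 8 h replicate 2 gave 41 of 80 (51.2%) in either case, beside 17.8% and 12.5% of all genes. Without 1 h replicate 1 the nuclear median was 0.07 and 64 of 81 tested members lay above 0. Over all genes 7548 of 15586 lay above 0, and the share varied between other lists without a clear break. Above 0 were 18 of 21 glycolysis genes (median 0.09), 59 of 77 mitoribosomal proteins (0.05), 14 of 19 citric acid cycle genes (0.03) and 48 of 75 cytosolic ribosomal proteins (0.07). Also above 0 were 16 of 33 genes of mitochondrial DNA expression (median -0.004), 28 of 49 assembly factors (0.009) and 13 of 21 electron carrier and ubiquinone genes (0.02). Of the regulators of mitochondrial biogenesis, 12 of 20 lay above 0 (0.06). Whether the chain differed from any of these lists was not tested. The members without overlap included Atp5o, Cox5a, Cox6b1, Cox8a, Ndufb9, Uqcrb and Uqcrh. Cox8a had 174, 191 and 171 CPM at 1 h and 195, 195 and 192 CPM at 8 h, a log2 fold change of 0.12 ± 0.06 (adjusted p = 0.559 in edgeR). Of the mitochondrial mRNAs, 3 of 7 did not overlap, and their median log2 fold change was 0.19. Differences of this size can come from a change per cell or from the mix of cells in the dissection, and in bulk tissue these cannot be told apart. The summed GABA-neuron markers, 8 genes, were 209 to 352 CPM at 1 h and 350 to 555 CPM at 8 h. Of the 8 relay-neuron markers, 2 lay above 0 (median log2 fold change -0.07). Among them edgeR called 1, Prkcd, which was higher at 8 h by 0.34 ± 0.07 (adjusted p = 0.0409), where 0.603% of all genes passed. The part of these markers in the result was not tested.

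Other genes of mitochondrial energy metabolism were mostly without calls. At 8 h against 0 h edgeR called 0 of 5 subunits outside the name rule, 0 of 21 electron carrier and ubiquinone genes, 0 of 49 assembly factors, 0 of 33 genes of mitochondrial DNA expression, 0 of 77 mitoribosomal proteins and 0 of 19 genes of the citric acid cycle. At an unadjusted p under 0.05 the numbers higher and lower in those lists were 0 and 0, 2 and 1, 1 and 1, 0 and 1, 0 and 1, and 0 and 0, where 5.9% of all genes were higher and 4.32% lower. DESeq2 also called 0 in each. At 1 h against 0 h both tools called 0 genes in them, with 1 gene higher at an unadjusted p under 0.05. At 8 h against 1 h edgeR called 0 genes in them (0.603% of all genes), and DESeq2 called 1, the electron carrier list gene Prodh (1.63% of all genes). Median log2 fold changes of these lists at 8 h against 0 h lay between -0.03 and 0.12. Cyc1, the cytochrome c1 of complex III, had a log2 fold change of 0.12 ± 0.09 and cytochrome c itself, Cycs, of 0.01 ± 0.16. Tfam, which packages mitochondrial DNA, had -0.13 ± 0.10, and the mitochondrial RNA polymerase Polrmt had -0.02 ± 0.09. Lrpprc, which stabilises mitochondrial mRNAs, had 0.03 ± 0.06. None of these 5 passed, with adjusted p of at least 0.691 in edgeR.

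Among 20 regulators of mitochondrial biogenesis, 1 (Ppard) rose at 8 h and 0 fell, where 0.587% of all genes passed. At an unadjusted p under 0.05, 5 of the 20 were higher and 0 lower, beside 5.9% and 4.32% of all genes, and 18 lay above 0. Ppard, a nuclear receptor of fatty acid metabolism, rose by a log2 fold change of 0.41 ± 0.07 (adjusted p = 0.0245 in edgeR). It lost the call without any 1 of the 6 libraries, with estimates of 0.37 to 0.45. Ppargc1a, the coactivator that drives mitochondrial gene expression in many tissues, had 67.8, 67.7 and 81.9 CPM at 0 h, 77.3, 78.8 and 78.1 CPM at 1 h and 97.1, 88.9 and 94.9 CPM at 8 h. Its 8 h libraries lay above all others, with a log2 fold change against 0 h of 0.37 ± 0.08 and an adjusted p of 0.0979 in edgeR. It was called by DESeq2 and without 0 h replicate 3, that is under 2 of 14 alternatives. Nrf1 and Esrra, transcription factors of chain genes, had 0.06 ± 0.09 and 0.13 ± 0.09. In the list of 21 glycolysis and glucose uptake genes, 1 rose, again beside 0.587% of all genes. Slc2a1, the glucose transporter of endothelium and glia, rose by 0.64 ± 0.09 (adjusted p = 0.00927 in edgeR) and was called under all 14 alternatives. It had 79.5, 76.7 and 77.9 CPM at 0 h and 123, 136 and 106 CPM at 8 h, without overlap. Slc2a1 was also higher at 8 h than at 1 h, by 0.54 ± 0.10 (adjusted p = 0.0351 in edgeR), where 0.603% of all genes passed. That call held under 10 of 18 alternatives.

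Some promoter windows of the nuclear members share letters that the name rule did not use. Promoter windows of 300 bases (RefSeq, GRCm38.p6) were found for 69 of the 83 genes, with 75 windows. The NRF-1 motif, GCGCA followed by any base and GCGC, was searched on both strands. It occurred in 24.0% of the members' windows and in 4.60% of all 32851 windows. The windows run past the transcription start, and the NRF-1 matches of Uqcrc1, Atp5g3, Atp5o and Ndufa6 lay only after it. CCGGAAG, an ETS-family motif, was in 21.3% against 8.86%, and AAGATGGC, a YY1 motif, in 16.0% against 2.75%. The base composition of the windows was not matched. The highest-level member with the NRF-1 letters in the 80 bases before its start is shown for complexes I, II and V, with those letters in capitals, because complexes III and IV had none there.
Ndufa8: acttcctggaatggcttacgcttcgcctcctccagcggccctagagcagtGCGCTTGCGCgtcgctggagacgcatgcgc
Sdha: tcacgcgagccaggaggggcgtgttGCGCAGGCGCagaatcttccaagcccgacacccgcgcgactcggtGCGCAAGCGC
Atp5c1: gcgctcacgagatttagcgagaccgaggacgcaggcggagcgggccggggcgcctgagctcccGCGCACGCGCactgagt
These lie on the minus strand at chr2:36049339-36049418, chr13:74350241-74350320 and chr2:10080433-10080512. Tested nuclear members with the letters numbered 16 and those without 49, and their median log2 fold changes at 8 h were 0.08 and 0.07. The match is a description of sequence and shows no binding.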

How the data were processed

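The deposited data were 4 tables of raw read counts per gene, made by the authors for 1 h and 8 h against 0 h. The submitters' processing notes name the tools BWA and edgeR 3.14.0 with build GRCm38 (mm10). Counting program and strand setting were not given in the sources used here. Quoted only as theirs, the authors' deposited fold change (ratio), p-value and FDR appear where named, and the deposited exonic length served for levels per kb. The 24 density columns were not used. Members, gene lists and tests were chosen with earlier results of these data known. Genes were tested on the whole tables with edgeR 4.0.16 (filterByExpr, TMM, glmQLFit, glmQLFTest) in R 4.3.3. Comparisons with 0 h used their 6 libraries, and 8 h against 1 h used all 9 libraries. P-values were adjusted by Benjamini-Hochberg with a threshold of 0.05. DESeq2 1.42.0, other scalings, no filter, a replicate block and leaving out each library were alternatives. The scripts were tested on simulated data. Named genes were all mitochondrial mRNAs and rRNAs, the highest-level and most changed nuclear member of each complex, isoform families and complex II. Fixed regulators and list genes past the threshold were also named. In lists not described above, Tunar, a non-coding RNA, and Fgfr3, an astrocyte marker, passed at 8 h against 0 h (adjusted p = 0.0019 and 0.0274 in edgeR). Other members were named after their values were seen, by smallest p or absence of overlap. Genome shares and levels are descriptions without tests. Errors are SD over libraries or an SE. The SE was derived as the absolute log2 fold change divided by the square root of edgeR's F statistic. Total counts of 5.73 M to 22.6 M limit precision for sparse genes. The submitters' protocol text gives 3 mice per time as independent samples.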

Additional observations from a re-analysis of the deposited data

How the results depend on the processing

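Calls over all genes were few and moved with the settings. For 1 h against 0 h the count of 2 became 14 under DESeq2, 1 with edgeR's newer dispersion option (chosen after seeing the data), 0 with a replicate block, 0 without both libraries with the most Neurod6 (chosen after seeing the data), and 0 to 9 when 1 library was left out. For 8 h against 0 h the count of 90 became 275 under DESeq2, 158 with the replicate block and 33 to 84 with 1 library left out (33 without 8 h replicate 2, 49 without 0 h replicate 1). For 8 h against 1 h the count of 94 became 197 under DESeq2, 28 without both Neurod6 libraries and 20 to 127 with 1 left out (20 without 1 h replicate 1, 26 without 8 h replicate 2, 31 without 1 h replicate 3, 38 without 8 h replicate 1, 45 without 8 h replicate 3). The cause was not tested, beyond fewer samples. The older edgeR dispersion option planned as an alternative is the package default and equals the reported fit, and no member row carried a predicted-gene name, so leaving such rows out changed nothing. Members called stayed at 0 at 1 h and at 8 h against 1 h under every alternative run. At 8 h against 0 h they were 1 under DESeq2 and 0 to 3 with 1 library left out. The replicate block changed no member's call. Same-numbered libraries correlated between -0.21 and 0.19 in their deviations from the group means, with 4 of 9 pairs over 0.1. Deviations within such small groups cannot settle whether the numbers pair the samples. The median log2 fold change of the mitochondrial mRNAs with 1 library left out ran from -0.20 to 0.31 at 1 h and from -0.027 to 0.50 at 8 h, and it was -0.24 at 1 h without both Neurod6 libraries. Directions at 8 h turned for mt-Co1 (-0.00028) and Sdhb (-0.011) without TMM. With 1 library left out the log2 fold changes ran from -0.064 to 0.19 for mt-Co1, -0.027 to 0.42 for mt-Cytb, -0.088 to 0.50 for mt-Nd4, -0.069 to 0.48 for mt-Nd5, -0.089 to 0.72 for mt-Rnr2, -0.025 to 0.079 for Sdha and -0.034 to 0.058 for Sdhb. Without division by length the mitochondrial median was 30.8 times the nuclear one. The difference between the genomes moved by less than the SD within groups under all alternatives, although its sign turned in every comparison: with 1 library left out it ran from -0.046 to 0.28 at 1 h against 0 h, from -0.028 to 0.30 at 8 h against 0 h and from -0.016 to 0.061 at 8 h against 1 h. Without both Neurod6 libraries it was -0.088 at 1 h and -0.028 at 8 h against 0 h. In 0 h replicate 1, at 5.73 M reads, sparse isoforms rest on few reads.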
